A study of Mus musculus with 20 samples.

Results

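Gm33424 is a long noncoding RNA gene (ENSMUSG00000113101) on mouse chromosome 13, and its RNA was counted in RNA sequencing libraries of the proximal colon (PC) from 20 mice of the inbred strain C57BL/6. It is 1 of 12701 genes in the count table. It was chosen for its graded rise with resistant potato starch (RPS) in these libraries, so its levels by diet are a description and carry no test. The genes around it were chosen by position, and the genes most like it by their correlation with it over the 20 libraries.

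After weaning at 3 to 4 weeks of age, all mice ate the Total Western Diet (TWD), whose nutrients are set to what people in the United States typically eat, for 6 weeks. Subgroups then ate the TWD with 0, 2, 5 or 10% RPS for 3 more weeks, so the 0% RPS mice ate the same Western diet. RPS is raw potato starch, much of which passes the small intestine undigested and feeds gut bacteria further down. There were 5 libraries for each diet, 1 from each mouse, and the labels give no litter, cage or time of collection. The PC segment was whole tissue, and fewer cells of a type cannot be told apart from less RNA per cell.

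Long noncoding RNAs (lncRNAs) are transcripts without a known protein product, many of them low in abundance, and some act on genes beside them on the chromosome while others have no known effect. The sources used here give no function for Gm33424. Its neighbour Nfil3 encodes a basic leucine zipper repressor that is part of the output of the circadian clock. NFIL3 binds the D-box, the DNA element that the activators DBP, TEF and HLF also bind, and so opposes them. In the intestinal epithelium Nfil3 is known as a clock gene through which immune and microbial signals reach genes of lipid uptake.

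Gm33424 lies at chr13:53139967-53190603 on the plus strand (GRCm39) and spans 50637 bp. The annotation (GENCODE M39) gives it 22 transcripts of 2 to 4 exons and 261 to 2973 bases, with a median of 830.5 bases. Their exons join into 20 blocks of 8137 bases in all, with 47.7% GC. Of the transcripts, 9 start within 50 bases of the 5′ end of the gene and 13 start downstream of that. An internal exon of 82 bases is shared by 12 of the 22 transcripts, and 11 end in a common 3′ exon. The longest open reading frame from an ATG is 14 to 124 codons per transcript, with a median of 48.

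The sequences below show the 5′-most annotated start, the exon most transcripts hold and the end of the common 3′ exon. They were read from the GRCm39 genome on the plus strand. Which of the annotated starts was used in these libraries is not known. In the promoter window, chr13:53139717-53140016, capitals mark the 50 bases from the annotated start onward. In the 3′ end, chr13:53172406-53172525, capitals mark an AATAAA polyadenylation signal 21 bases before the end of the exon. The shared internal exon is chr13:53170238-53170319.
Promoter window: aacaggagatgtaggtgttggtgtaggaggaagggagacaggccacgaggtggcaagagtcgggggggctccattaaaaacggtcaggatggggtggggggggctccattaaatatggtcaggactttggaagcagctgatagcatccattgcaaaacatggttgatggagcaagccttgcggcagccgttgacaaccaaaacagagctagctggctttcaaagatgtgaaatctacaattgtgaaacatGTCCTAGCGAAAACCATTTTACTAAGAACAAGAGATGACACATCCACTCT
Shared internal exon: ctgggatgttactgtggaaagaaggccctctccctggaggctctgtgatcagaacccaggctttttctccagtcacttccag
3′ end of the common last exon: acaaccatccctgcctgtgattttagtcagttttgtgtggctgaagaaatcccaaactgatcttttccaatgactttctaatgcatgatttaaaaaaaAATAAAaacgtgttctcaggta

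The promoter window held 48.7% GC and 6 CpG sites, against medians of 55.0% and 13 over the promoters of the genes in the table, of which 23.6% had fewer. The same window of Nfil3 held 49.3% GC and 7 CpG sites. The letters of 7 motifs were searched on both strands of 12651 promoters of 300 bases. None was found in the window of Gm33424 or of Nfil3. Over all promoters the D-box (TTATGTAA) was found in 0.790%, the E-box of clock activators (CACGTG) in 8.85%, a STAT site (TTCNNNGAA) in 7.77% and an AP-1 site (TGANTCA) in 5.68%. An interferon-stimulated response element was found in 3.68%, a TATA box (TATAAA) in 9.84% and a CCAAT box in 38.3%. These letters are absent from these windows, and nothing follows from that for the factors. The starts of Gm33424 further downstream were not searched.

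The 5′ ends of Gm33424 and Nfil3 face away from each other across 2957 bp, as the map of annotated genes shows. The annotation holds 47 other genes within 1 Mb of Gm33424. Of these, 6 are in the count table, all of them protein-coding, out of 8 annotated protein-coding genes. None of the 35 annotated lncRNA genes of that window is in the table, so Gm33424 is the 1 lncRNA counted there. Gm33519, an antisense lncRNA, is the 1 annotated gene whose exons overlap those of Gm33424, by 242 bases or 2.97% of its exonic length. The libraries were stranded, but whether strand was used to count reads is not stated, so reads from those bases cannot be assigned with certainty. Of all 50-base windows in the transcripts of Gm33424, 1037 of 19867 (5.22%) also occur in transcripts of other genes, 28 in all, and how the authors counted such reads is not stated.

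**Figure D1:**
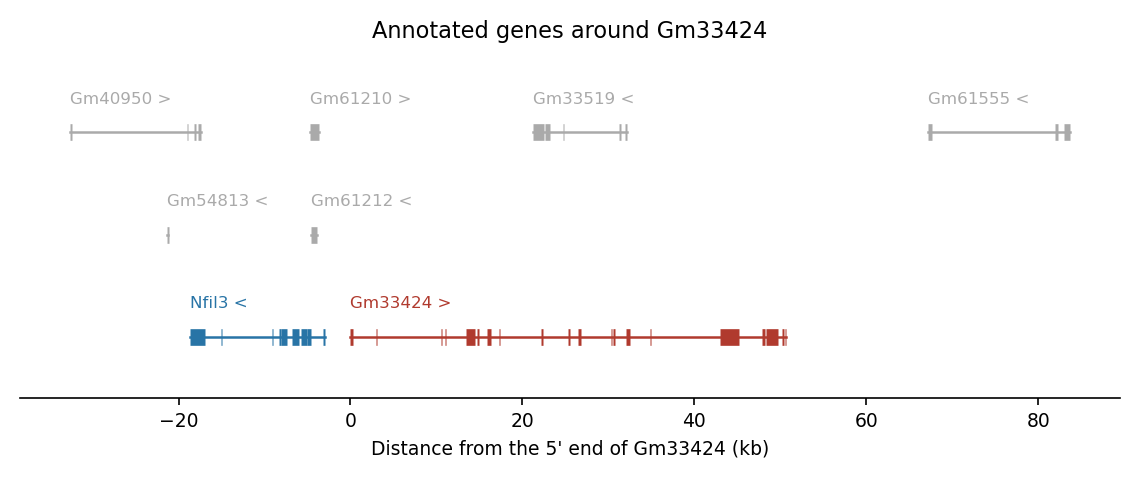
Annotated genes around Gm33424 by distance in kb from its 5′ end, with thin lines for gene spans, blocks for exons and > or < for strand. Red is Gm33424, blue a gene in the count table and grey a gene that is not, and the start of Gm33424 stands 2957 bp from that of Nfil3 with no exon of a counted gene between them.

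Gm33424 was a low-abundance RNA in the PC. Its raw counts ran from 25 to 196 per library with a median of 117.5, out of 20581013 to 35083751 total counts (median 26354926.5). This is 0.991 to 7.96 CPM, the count scaled to the total of the library, against a detection floor of 3 counts at 0.0855 to 0.146 CPM. Over the 20 libraries its mean of 115 normalised counts (counts divided by DESeq2 size factors) exceeded that of 10.2% of the genes in the table. Among the 540 lncRNAs in the table it ranked 233 by mean count. Per kilobase of annotated exon it stood at 14.2 normalised counts, rank 434 of those lncRNAs, where the median lncRNA stood at 36.2, Nfil3 at 40.2 and the median protein-coding gene at 139.8.

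Gm33424 was lowest in the mice on the TWD alone and higher in every mouse given RPS. In 0% RPS the normalised counts were 53.8, 26.0, 69.1, 49.4 and 36.3, a mean of 46.9 ± 16.5 (SD, n = 5). In 2% RPS they were 98.5, 101.3, 136.5, 95.2 and 135.0 (113 ± 20.6). In 5% RPS they were 146, 124, 195, 108 and 85.0 (132 ± 41.9). The highest values came with the most starch: in 10% RPS they were 194, 155, 224, 114 and 160.4 (169.6 ± 41.7, all n = 5). All 15 RPS libraries exceeded the highest 0% RPS library, the lowest of them being replicate 5 of 5% RPS at 85.0 against 69.1. Of all genes with a count, 0.0716% (9 of 12576) shared this separation, but the gene was chosen for it.

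The 3 RPS diets overlapped each other. At 5% RPS 2 of 5 libraries exceeded the highest 2% RPS library, and the means differed by 18.3 counts, less than the SD of either diet. At 10% RPS 4 of 5 libraries exceeded the highest at 2% RPS, with a difference of 56.3 counts, and 1 of 5 exceeded the highest at 5% RPS, with a difference of 38.1 counts that is within their SDs of 41.9 and 41.7. A mean that increases at each of the 3 steps was found in 9.04% of genes. The largest step was from 0 to 2% RPS, 66.4 counts.

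In the fit over all 20 libraries, the log2 fold change of Gm33424 was 1.27 ± 0.26 (SE) at 2% RPS, 1.48 ± 0.25 at 5% and 1.85 ± 0.25 at 10%, compared with 0% RPS. The ratios of means were 2.42, 2.80 and 3.62. The slope over the 4 diets was 0.15 ± 0.03 log2 units per percent RPS. The counts themselves set part of the spread: the library with the fewest, replicate 2 of 0% RPS, held 25 counts (95% exact Poisson interval 16.2 to 36.9, counting error only) and replicate 3 of the same diet held 76 (59.9 to 95.1). The coefficient of variation within a diet was 35.2%, 18.2%, 31.9% and 24.6% from 0 to 10% RPS.

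**Figure D2:**
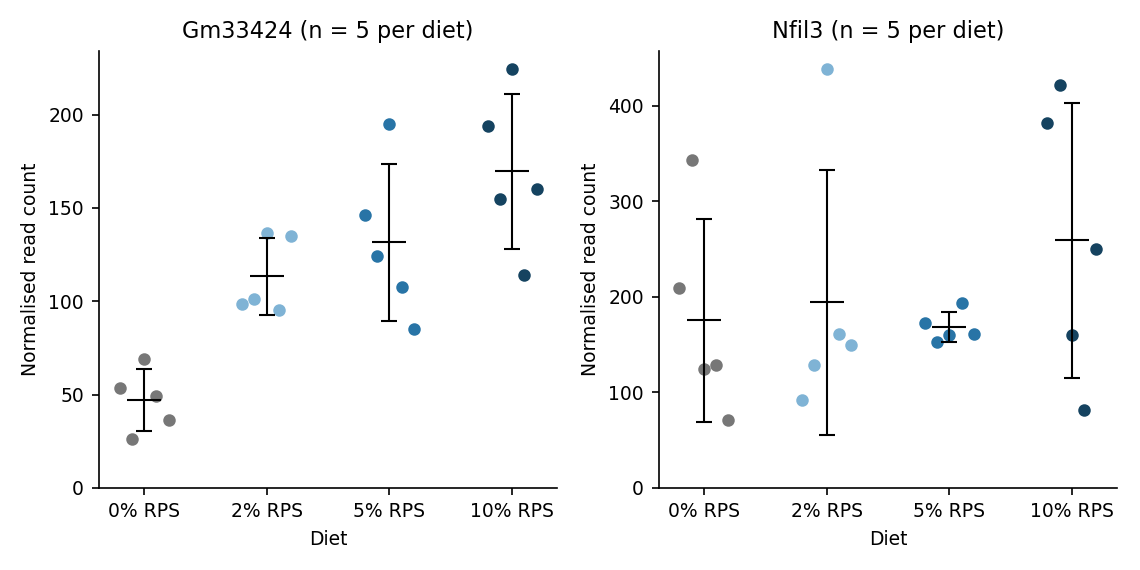
Normalised read count of Gm33424 (left) and of its neighbour Nfil3 (right) in each library, by diet, with the mean and SD over 5 mice. All RPS libraries of Gm33424 lie above the 0% RPS libraries, of which the highest is 69.1, while the diets of Nfil3 overlap throughout.

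Gm33424 was 1 of 4 lncRNAs called at 10% RPS, and at that diet lncRNAs were called about as often as genes in general. A gene was called when its adjusted p was at most 0.05 and its fold change at least 1.5. With DESeq2 0.0239% of 12561 genes were called at 2% RPS, 0.43% at 5% and 0.9% at 10%. Of 509 lncRNAs tested, 1 was called higher at 2% RPS, 2 at 5% and 3 at 10%, and 1 was called lower at 10%. Gm33424 was among those called higher at each diet, which its choice implies. The others, named after their values were seen, were Plet1os, an antisense RNA of the epithelial surface gene Plet1, and Gm36640. Plet1os rose by 0.94 ± 0.26 on the log2 scale at 5% RPS (DESeq2 adjusted p = 0.0268) and by 1.24 ± 0.26 at 10% (adjusted p = 0.000619). Gm36640 rose by 0.77 ± 0.21 at 10% RPS (adjusted p = 0.0130). By edgeR the lncRNAs called higher numbered 0, 1 and 2 over the 3 diets, where 0.0%, 0.0566% and 0.323% of 12366 genes were called in either direction.

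The libraries held RNA of epithelium and muscle, but the markers below do not tell the PC from other parts of the gut. All 8 epithelial and all 8 smooth muscle markers were in the table. Of the markers of stomach, liver and pancreas 2 of 6 were counted, summing to 19.6 to 1176 normalised counts per library, against 378266 or more for the epithelial list. Of the small intestinal markers 4 of 6 were counted, with mean sums of 5010, 8409, 6368 and 4246 from 0 to 10% RPS. The epithelial score, the mean of log2(normalised count + 1) over the list, was 15.3 ± 0.119 in 0% RPS and 15.5 ± 0.105 in 10% RPS. None of its 8 members was called at any diet. At an unadjusted DESeq2 p under 0.05, 4 of the 8 passed at 2% RPS, 3 at 5% and 4 at 10%. Of all genes 8.7%, 16.6% and 18.8% did, so a shift in epithelial content is not excluded. The smooth muscle score was 14.1 ± 0.415 and 13.9 ± 0.287, also with 0 of 8 called. With the epithelial score in the fit the log2 fold changes of Gm33424 were 1.18, 1.40 and 1.75 over the 3 diets, and with the smooth muscle score 1.27, 1.45 and 1.83.

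Library replicate 2 of 0% RPS stood apart from the others. It was the highest or lowest of the 20 libraries for 26.2% of 12348 genes (those averaging at least 10 normalised counts), against 2.13 to 17.4% for the other libraries. It also had the lowest Gm33424 of all 20 and the highest smooth muscle score, 14.7. Without it the log2 fold change of Gm33424 at 10% RPS was 1.70 ± 0.25 and the calls at 10% RPS over all genes numbered 201 rather than 113. Total counts, size factor and number of genes with a count had r of 0.11, -0.02 and -0.01 with Gm33424 over the 20 libraries.

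No neighbour of Gm33424 passed the test at any diet. The 6 counted genes within 1 Mb are, in chromosome order, Diras2 (a Ras-like GTPase), Syk (a kinase of immune receptors), Auh (a mitochondrial enzyme of leucine breakdown), Nfil3, Ror2 (a receptor for Wnt5a) and Sptlc1 (a subunit of serine palmitoyltransferase, which starts sphingolipid synthesis). With DESeq2, 0 of 6 were called at 2, 5 or 10% RPS or in the linear trend, in which 4.31% of 12545 genes passed. By edgeR 0 of 6 were called as well, and 1.33% of all genes passed its trend. At an unadjusted p under 0.05 the count was 0 of 6 at 2% RPS, 1 at 5%, 2 at 10% and 2 in the trend, where 8.7%, 16.6%, 18.8% and 19.1% of all genes passed.

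Nfil3 varied widely between mice of the same diet. In 0% RPS its normalised counts were 209.5, 344, 125, 128 and 71.5 (175 ± 106). In 2% RPS they were 91.9, 129, 439, 162 and 149.7 (194 ± 139), and in 5% RPS 172, 153, 160.1, 194 and 162 (168 ± 15.9). In 10% RPS they were 382, 422, 160.4, 81.4 and 250.3 (259 ± 144). The ranges of all 4 diets overlap, and the coefficient of variation was 60.5%, 71.7%, 9.46% and 55.6% from 0 to 10% RPS. The log2 fold change was 0.15 ± 0.48 at 2% RPS, -0.06 ± 0.48 at 5% and 0.56 ± 0.48 at 10% (DESeq2 adjusted p = 0.951, 0.966 and 0.532). The 95% interval at 10% RPS, -0.37 to 1.498, leaves room for a change close to that of Gm33424 at 5%, so the data do not show that Nfil3 was unchanged.

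Auh, 56219 bp from Gm33424 beyond Nfil3, varied little, with means of 698 ± 81.6, 719.8 ± 55.3, 683 ± 39.8 and 693 ± 41.4 normalised counts from 0 to 10% RPS. Its log2 fold change at 10% RPS was -0.01 ± 0.08 (DESeq2 adjusted p = 0.951, interval -0.17 to 0.15). Ror2, 72745 bp from the 3′ end of Gm33424, had means of 695 ± 68.5, 616 ± 124, 608 ± 7.62 and 588 ± 74.0. In 10% RPS 4 of its 5 libraries lay below the lowest 0% RPS library, with a log2 fold change of -0.24 ± 0.12 (adjusted p = 0.241). Sptlc1, 296126 bp away, had means of 1770.3 ± 121, 1901 ± 112, 1935 ± 74.1 and 1945 ± 60.3, and its log2 fold change at 10% RPS was 0.14 ± 0.05 (adjusted p = 0.122). Syk and Diras2 had log2 fold changes of 0.09 ± 0.17 and -0.73 ± 0.43 at 10% RPS (adjusted p = 0.796 and 0.336). The intervals of Auh, Syk, Ror2 and Sptlc1 at 10% RPS all end below 0.42, under the changes of Gm33424 at every diet, while that of Diras2 runs from -1.56 to 0.11.

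**Figure D3:**
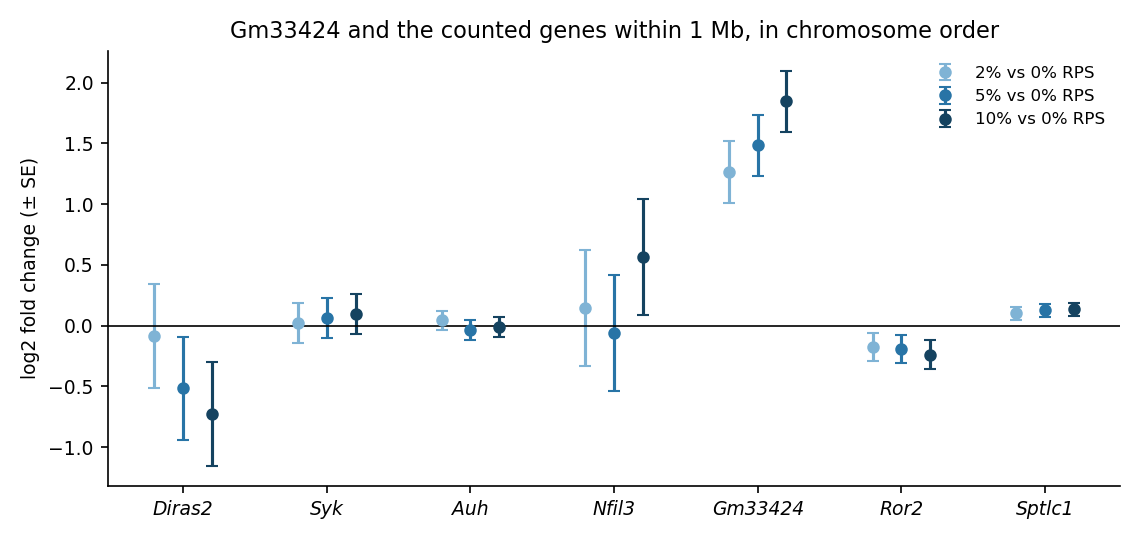
Log2 fold change against 0% RPS with its SE from the DESeq2 fit, for Gm33424 and the 6 counted genes within 1 Mb in chromosome order. Gm33424 stands at 1.27 to 1.85, and the neighbours lie between -0.73 and 0.56.

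Within a diet, no relation between Gm33424 and Nfil3 passed the test. After each diet mean was subtracted, Pearson r between their log2 normalised counts was 0.10 over 20 libraries (permutation within diets, 100000 resamples, two-sided, p = 0.701, adjusted over 6 neighbours 0.841) and Spearman rho was 0.06 (permutation p = 0.828, adjusted 0.828). Without the 2 libraries farthest from the median, replicates 2 and 3 of 0% RPS, r was 0.43, and without replicate 2 alone it was 0.40 (permutation p = 0.0862). Sptlc1 had the highest r of the 6, 0.56 (permutation p = 0.0245, adjusted 0.147), with rho of 0.52 (permutation p = 0.0456, adjusted 0.274) and 0.37 without those 2 libraries. For Diras2, Syk, Auh and Ror2 it was -0.27, -0.02, -0.12 and -0.23, with adjusted permutation p from 0.615 to 0.953, and 0.09, 0.52, -0.20 and -0.02 without those 2 libraries, so that Syk then had the highest r of the 6. Over all 20 libraries, diet differences included, r with Gm33424 was 0.23 for Nfil3, 0.76 for Sptlc1 and -0.52 for Ror2. Without replicate 2 of 0% RPS these were 0.51, 0.66 and -0.37. For Syk r was 0.19 with all libraries and 0.74 without replicate 2 of 0% RPS, in which Syk was at 2719 against 1081 to 2074 in the other libraries.

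Nfil3 varied with the core clock from mouse to mouse. Its r over the 20 libraries was 0.92 with Bmal1, the activator of the clock, -0.92 with Dbp and -0.95 with Tef, the D-box activators that NFIL3 opposes, 0.79 with Npas2, a partner of BMAL1, -0.66 with Per2 and -0.46 with Nr1d1. For Gm33424 the same 6 genes gave 0.09, -0.05, -0.12, 0.14, -0.54 and 0.03. In replicate 3 of 2% RPS, where Nfil3 was highest, Bmal1 stood at 1476 and Dbp at 178.5 normalised counts. In replicate 4 of 10% RPS, where Nfil3 was at 81.4, Bmal1 stood at 381 and Dbp at 1873. Those libraries held 136.5 and 114 counts of Gm33424. Both lay above its highest 0% RPS value, but so did every RPS library, so nothing about the clock is read from it. These correlations are descriptions over libraries that share diets, and those of Gm33424 moved when replicate 2 of 0% RPS was left out. Without it they were 0.42 with Bmal1, -0.41 with Dbp, -0.51 with Tef, 0.38 with Npas2, -0.48 with Per2 and -0.48 with Nr1d1. Within diets, all libraries included, they were -0.07, 0.07, 0.07, -0.33, -0.34 and 0.22. The score of the clock list had r of -0.28 with Gm33424, rho of -0.48 and r of -0.04 within diets. That list mixes genes that ran against each other, such as Bmal1 and Dbp, so its score gives no clock phase. The hour at which each mouse was killed is not given in the sources used here.

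The clock list, 18 genes of the clock and of the D-box, had 16 members in the table. By DESeq2 and by edgeR 0 of 16 were called at 2, 5 or 10% RPS, where DESeq2 called 0.374% of all genes lower at 10%. At an unadjusted p under 0.05, 0, 1 and 3 of the 16 passed by DESeq2 over the 3 diets and 0, 1 and 2 by edgeR. By DESeq2 8.7%, 16.6% and 18.8% of all genes passed in the same way. In the trend 1 member passed by DESeq2, the period gene Per1, as lower, and 0 passed by edgeR. Of all genes 1.91% passed the trend as lower by DESeq2, and 1.33% passed in either direction by edgeR. Per1 stood at 2105 ± 508, 1959 ± 631, 1527 ± 333 and 1409.8 ± 283 normalised counts from 0 to 10% RPS, with a slope of -0.06 ± 0.02 log2 units per percent RPS (DESeq2 adjusted p = 0.0419, edgeR adjusted p = 0.103). The median log2 fold change of the 16 at 10% RPS was -0.33, with 5 of 16 positive, against 3.63e-05 over all genes tested. The list mixes genes that ran against each other, such as Bmal1 and Dbp, so this median gives no direction of the clock.

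The other clock genes had wide spreads within a diet. Dbp stood at 175 to 2596 normalised counts in 0% RPS and at 172 to 1873 in 10% RPS, with a log2 fold change of -0.57 ± 0.68 (DESeq2 adjusted p = 0.678). Per2 had -0.67 ± 0.32 (adjusted p = 0.2197), Bmal1 0.28 ± 0.47 (adjusted p = 0.779) and Nr1d1, the repressor of Bmal1, -0.12 ± 0.20 (adjusted p = 0.786). Without replicate 4 of 10% RPS, in which Per2 stood at 1708 against 649 to 858 in the others, 2 clock genes were called lower at 10% RPS, Per1 and Per2. Without replicate 2 of 0% RPS 1 was, Per1. In that fit 72 of all genes were called lower at 10% RPS, rather than 47 with all libraries. The count over all genes without replicate 4 of 10% RPS is not reported here, so nothing about the clock is read from these calls.

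Genes of lipid handling tied to NFIL3 gave no call at any diet by DESeq2 or edgeR, with 0 of 10 called and 2 of 10 at an unadjusted p under 0.05 at 10% RPS, where 18.8% of all genes passed. Cd36, a fatty acid transporter, had means of 1013 ± 274, 954 ± 248, 655 ± 138 and 1301 ± 793 normalised counts, and Scd1, a fatty acid desaturase, had 3175 ± 2214, 3219.6 ± 2509, 1402 ± 358 and 6367 ± 7329. Their log2 fold changes at 10% RPS were 0.36 ± 0.28 (DESeq2 adjusted p = 0.485) and 1.004 ± 0.62 (adjusted p = 0.365). In the list of the microbe-sensing circuit of STAT3 and innate lymphoid cells, 7 of 11 members were in the table, and Il22, Il23r, Il17a and Il17f were not. At 5% RPS 3 were called higher (0.326% of all genes were), and at 10% RPS 3 were called higher (0.525% of all genes were) and 0 lower. Those called higher were the lectins Reg3b and Reg3g and the fucosyltransferase Fut2, at 4.06 ± 0.90, 3.46 ± 0.98 and 0.81 ± 0.23 on the log2 scale at 10% RPS (DESeq2 adjusted p = 0.00137, 0.0190 and 0.0190). By edgeR 0 of the 7 were called, with 4 at an unadjusted p under 0.05 at 5 and at 10% RPS. DESeq2 also put 4 of the 7 under that p at each of these diets, where 16.6% and 18.8% of all genes passed. The score of this list had r of 0.76 with Gm33424 over 20 libraries and 0.45 within diets.

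In the cell marker lists the calls were of single members. At 10% RPS, where 0.525% of all genes were called higher and 0.374% lower, DESeq2 called 1 of 10 absorptive colonocyte genes higher, Ceacam1 (0.60 ± 0.13, adjusted p = 0.000944), 1 of 7 neuron and glia genes higher, Gfap (0.61 ± 0.16, adjusted p = 0.00797), and 1 of 4 tuft cell genes lower, Alox5ap (-0.61 ± 0.18, adjusted p = 0.0289). Gfap was the 1 positive of the 7 neuron and glia genes, whose median log2 fold change at 10% RPS was -0.16. By edgeR Ceacam1 was called (adjusted p = 0.0340), and Gfap and Alox5ap were not (adjusted p = 0.0569 and 0.0707). By DESeq2 none of the goblet, crypt, enteroendocrine, fibroblast, leukocyte, plasma cell, endothelial or small intestinal genes was called at 2, 5 or 10% RPS. Of 8 goblet genes, 5 had an unadjusted p under 0.05 at 5% and 5 at 10% RPS, where 16.6% and 18.8% of all genes did. The goblet score stood at 14.6 ± 0.173, 14.9 ± 0.381, 15.1 ± 0.129 and 15.1 ± 0.219 from 0 to 10% RPS, with r of 0.47 with Gm33424 over 20 libraries and -0.24 within diets. In the trend, in which DESeq2 passed 2.4% of all genes as higher and 1.91% as lower, Epcam, Agr2, Car4, Ceacam1 and Gfap were higher with more starch, and Smoc2, Alox5ap and Sh2d6 lower. Of these 8, edgeR called Ceacam1, Gfap and Smoc2, and gave the others adjusted p of 0.0650 to 0.122. Gfap was again the 1 positive of the 7 neuron and glia genes. Of the 7 crypt genes 4 had a positive slope, unlike Smoc2. Tuft scores had r of -0.77 with Gm33424 over 20 libraries and -0.41 within diets, and stood at 8.83 ± 0.170 in 0% RPS and 8.44 ± 0.158 in 10% RPS. Epithelial scores had r of 0.57 and 0.17, and the part of cell content in the level of Gm33424 was not tested beyond the covariate fits above.

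The gene most like Gm33424 was Rmdn3, which encodes a protein that tethers mitochondria to the endoplasmic reticulum. Likeness was Pearson r of log2(normalised count + 1) over the 20 libraries, among the 12347 other genes averaging at least 10 normalised counts. Its r was 0.92, and 0.77 after diet means were subtracted. Rmdn3 stood at 1503 ± 109, 1679 ± 113, 1791 ± 55.6 and 1813 ± 74.0 normalised counts from 0 to 10% RPS, so its range was far narrower than that of Gm33424. The next 8 had r of 0.86 to 0.88. They were B4galt1 (a Golgi galactosyltransferase), Lpo (lactoperoxidase), Psme2 (a proteasome activator), Uhmk1 (a kinase), Ptdss1 (a phosphatidylserine synthase), Gm3336 (a predicted gene), Tspan8 (a tetraspanin of gut epithelium) and Mapk13 (a p38 kinase). No gene within 1 Mb was among them, and Sptlc1 ranked 85.

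The genes that went against Gm33424 most were Jade2 (a chromatin reader, r = -0.86), Pdgfrb (a growth factor receptor of pericytes and fibroblasts, -0.85), Gtf2i (a transcription factor, -0.85), Slc15a1 (the peptide transporter PEPT1, -0.84) and Sdk1 (an adhesion molecule, -0.84). Over all genes the median r was -0.01, with 209 genes above 0.7 and 115 below -0.7. The 20 points share 4 diets, so a difference between 0% RPS and the RPS diets can by itself give a gene a high r of one sign. Of these 9 highest, 8 passed the trend as higher (2.4% of all genes did) and 1, Lpo, was called at 5 and 10% RPS. Of the 5 lowest, 5 passed the trend as lower (1.91% of all genes did) and 1, Slc15a1, was called at 5 and 10% RPS. Since the choice fixes these counts in part, nothing is read from them. Lpo stood at 566 ± 61.0 and 1306 ± 313 normalised counts in 0 and 10% RPS, and Slc15a1 at 164.5 to 553 and 53.5 to 167 in the same diets.

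Within diets the order changed. The 5 highest r were those of Mix23 (0.82) and Coq5 (0.79), mitochondrial proteins of import and of coenzyme Q synthesis, Cdca7 (0.77), Rmdn3 (0.77) and the gut ubiquitin ligase Trim40 (0.77). The 3 lowest were Sytl1 (-0.84), a vesicle protein, the lncRNA Gm15675 (-0.84) and Cldn15 (-0.82), a tight junction protein that forms a cation pore. Only Rmdn3 of the 9 named over all libraries was also among these 5. Above 0.7 there were 32 genes and below -0.7 there were 29. Without replicates 2 and 3 of 0% RPS, r within diets was 0.71 for Mix23, 0.69 for Coq5, 0.68 for Cdca7, 0.76 for Rmdn3 and 0.70 for Trim40.

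**Figure D4:**
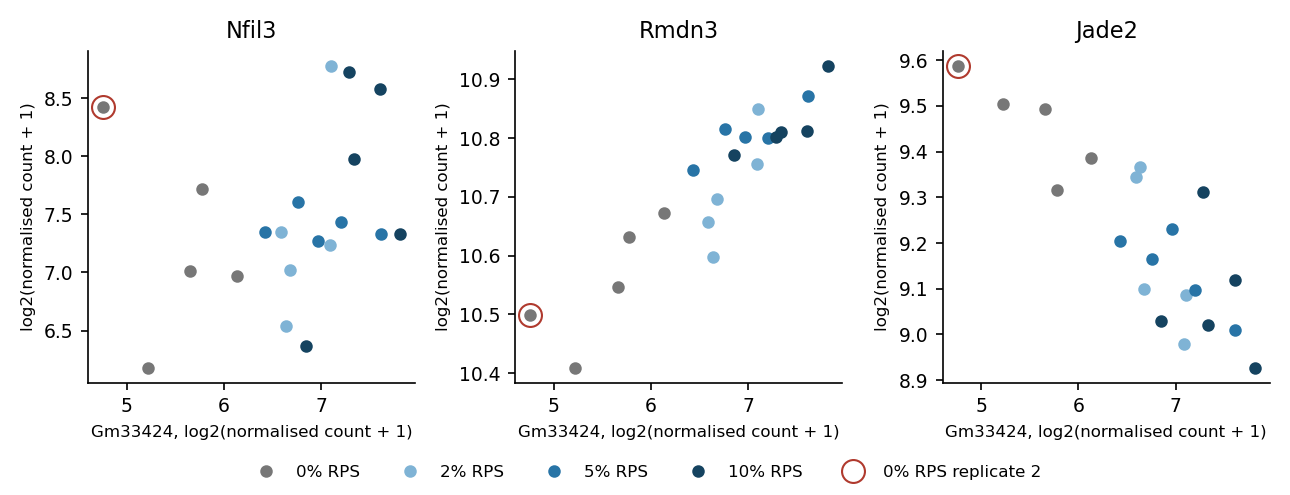
Log2(normalised count + 1) of Nfil3, Rmdn3 and Jade2 against that of Gm33424 in each of 20 libraries, coloured by diet, with replicate 2 of 0% RPS ringed. Rmdn3 climbs with Gm33424 (r = 0.92) and Jade2 descends (r = -0.86), while Nfil3 scatters (r = 0.23, and 0.51 without the ringed library).

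The list of most alike genes leaned on replicate 2 of 0% RPS, the library lowest in Gm33424. Without it, Rmdn3 still ranked 1 with r of 0.91, but the 8 others named above then held ranks 12 to 74, with r of 0.79 to 0.85. The places behind Rmdn3 were then taken by Nras (0.89), Dusp6 (0.88), Eaf1 (0.88), 1110059E24Rik (0.88), B3gnt7 (0.88), Smox (0.86), Rab21 (0.86), Smap2 (0.86) and Sprr2a2 (0.86). Dusp6, a phosphatase of MAP kinases, had r of 0.55 with that library in. At the other end, Ppara, the fatty acid receptor of the nucleus, went from -0.11 to -0.91 without it. Jade2, Pdgfrb, Gtf2i, Slc15a1 and Sdk1 had r of -0.81, -0.87, -0.83, -0.78 and -0.78 without it.

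**Figure D5:**
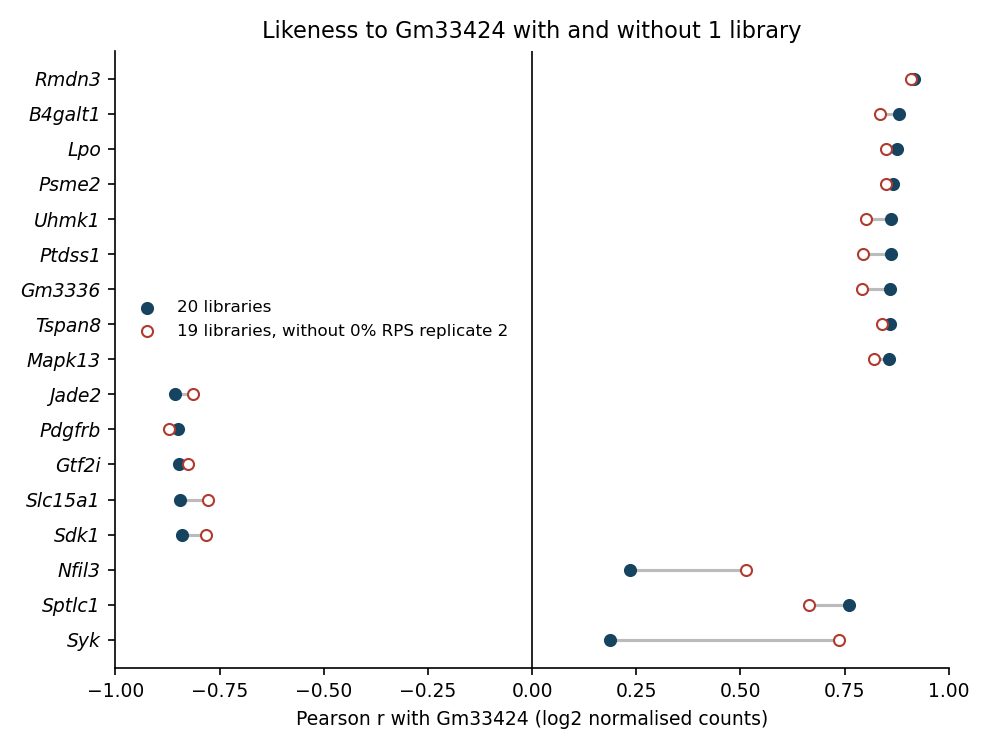
Pearson r with Gm33424 over 20 libraries (filled) and over the 19 without replicate 2 of 0% RPS (open), for the 9 highest and 5 lowest genes and 3 neighbours. Rmdn3 moves from 0.92 to 0.91, and Syk from 0.19 to 0.74.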

How the data were processed

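RNA from the proximal colon (PC) of 20 mice, 5 per diet, was sequenced by the authors as single-end reads from stranded mRNA libraries. Per the methods of the study, reads were trimmed, aligned to GRCm39 and counted per gene in CLC Genomics Workbench. The deposited table holds raw read counts of 12701 Ensembl genes, neither normalised nor pooled by the authors. The annotation, the use of strand and the treatment of reads with several matches are not given in the sources used here, so the exons counted for Gm33424 are not known and a count shared with another gene is uncertain.

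Diets were taken from the treatment label, and columns were matched by library number. Gene models, coordinates and promoter windows (250 bases before to 50 after the 5′ end) came from GENCODE M39 on GRCm39, which matched 12682 of the 12701 genes. The counts of all 20 libraries were fitted, as in the study, by DESeq2 1.42.0 (R 4.3.3) with a term for diet alone, and Wald tests were adjusted by Benjamini-Hochberg over all genes. Where neither edgeR nor a permutation is named, an adjusted p is that of DESeq2. edgeR (version 4.0.16) with its quasi-likelihood test was the alternative. DESeq2, but not edgeR, was tested on simulated counts. Each count was divided by the DESeq2 size factor of its library (normalised count), and correlations used log2(normalised count + 1). The p values of DESeq2 and edgeR set a difference against a spread between mice that is estimated over all 20 libraries together. Permutation p values come from shuffling libraries within diets.

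Total counts of 20581013 to 35083751 per library set the precision, with Gm33424 at 25 to 196 counts. The members, gene lists and tests were chosen with earlier results of these data known. Named were Gm33424, the counted genes within 1 Mb (with values for those within 250 kb or called), the 10 highest and 5 lowest r over all libraries, the 5 highest and 3 lowest within diets, every called list member, and Dbp, Nr1d1, Per2, Bmal1, Cd36 and Scd1 in any case. Sequence windows shared with other genes were found with BLAST. Cecum and distal colon, also part of the study, were not analysed here, and a few genes that the rule or the lists hold are not reported here. Alternatives were edgeR, TMM factors, CPM, a filter of 10 counts in 5 libraries, no fold threshold, windows of 0.5 and 2 Mb, Spearman rho, variance-stabilised values, a pseudocount of 0.1, a mean of at least 100, omission of each library or of the 3 libraries numbered outside the sequence that the other labels follow, and, chosen after seeing the data, smooth muscle and epithelial scores as covariates.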

Additional observations from a re-analysis of the deposited data

Results flagged for a closer look

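Among 140 groups of 5 libraries (35 genes in 4 diets), 13 held a library whose distance to the nearest other, divided by the range of the group, exceeded Dixon's critical value of 0.71. For normally distributed values chance gives such a library in about 1 in 20 groups. The values here were normalised counts without a log, and all 13 flagged libraries were the highest of their 5, so that rate need not hold. None of the 4 groups of Gm33424 was among them.

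Among the neighbours, Nfil3 was at 439 normalised counts in replicate 3 of 2% RPS against 91.9 to 162 in the other 4, and Diras2 at 512 in replicate 2 of 0% RPS against 108 to 182. Sptlc1 was at 2100.3 in replicate 5 of 2% RPS against 1841 to 1865, and Ror2 at 622 in replicate 3 of 5% RPS against 604 to 605. Of the genes most like Gm33424, Rmdn3 was at 1940.2 in replicate 3 of 10% RPS, the library highest in Gm33424, against 1747 to 1798. Replicate 1 of 0% RPS held 1412 counts of Psme2 against 1141 to 1208, and 6876 of Mapk13 against 5051 to 5499.9. Gm3336 was at 2791 in replicate 3 of 2% RPS against 2017 to 2234.

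Of the clock and lipid genes, Per2 was at 2190.4 in replicate 1 of 2% RPS against 789.5 to 1186, and at 1708 in replicate 4 of 10% RPS against 649 to 858. Cd36 was at 2691 in replicate 1 of 10% RPS against 788 to 1185. Scd1 stood apart in the same library at 19282 and in replicate 3 of 2% RPS at 7624, the library in which Nfil3 was also highest.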

How the results depend on the processing

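The log2 fold changes of Gm33424 kept their sign under every alternative run: without 1 library at a time they were 1.12 to 1.45 at 2% RPS, 1.30 to 1.67 at 5% and 1.70 to 2.03 at 10%. The 0 of 6 neighbours called stayed at 0 at each diet and in the trend under every setting run, apart from a window of 2 Mb, where 1 gene passed the trend, Cplx2 at 1328551 bp. In the clock list, the 0 called at 10% RPS went to 1 without the 3 libraries outside the run of label numbers, and to between 0 and 2 without 1 library. The calls over all genes moved as well, as given above for replicate 2 of 0% RPS. The r of Gm33424 and Nfil3 within diets was -0.11 to 0.40 without 1 library, and passed the test in none of the settings. Of the 10 genes most like Gm33424, 5 were shared under Spearman rho, and 1 to 10 without 1 library, the 1 being Rmdn3 without replicate 2 of 0% RPS. The causes were not tested. No paired analysis was possible because no replicate number in the labels is common to several diets. With 25 to 196 counts per library, counting error is a visible part of each value of Gm33424, and the values at 2, 5 and 10% RPS overlapped.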
